A study of Mus musculus with 19 samples.

Results

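The 10 Kruppel-like factors described here are Klf2, Klf3, Klf4, Klf6, Klf7, Klf9, Klf10, Klf11, Klf13 and Klf15, measured in endothelial cells that had been sorted from the brains of mice exposed to chronic social defeat (CSD). A factor was taken from the array when its annotation gave that gene as the only symbol of a row, and each of the 10 had exactly 1 such row among the 65956 rows that were tested. Membership went by gene symbol alone. In every group all 10 rows lay above a level of log2 3.10, here called the receptor level. It is the 95th percentile of 1758 rows for odorant, pheromone and taste receptors, which endothelial cells are not known to use.

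Kruppel-like factors are zinc finger transcription factors that bind CACCC boxes and related GC-rich sequences in promoters. In endothelium, Klf2 and Klf4 are switched on by laminar shear stress through the kinases Mek5 and Erk5 and the transcription factor Mef2, and keep the vessel wall quiescent and anticoagulant. Klf9 and Klf15 are direct targets of the glucocorticoid receptor in several tissues, and Klf13 is the closest relative of Klf9. Klf6 is induced after vascular injury and activates genes of the TGF-beta pathway in endothelial cells, Klf10 and Klf11 are the TGF-beta inducible repressors that recruit Sin3, Klf3 represses through CtBP, and Klf7 is best known for axon outgrowth.

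The arrays cover 19 male wild-type (WT) C57BL/6N mice aged 8 to 10 weeks, with one array for the CD31 positive brain cells of each animal. Home cage (HC) mice were never defeated (n = 4, animals 1, 2, 5 and 6). CSD1, CSD7 and CSD14 mice had lived for 1 day (n = 3, animals 4, 18 and 19), 7 days (n = 4, animals 9, 16, 17 and 25) or 14 days (n = 4, animals 12 to 15) beside an aggressive CD-1 male with a short daily encounter. CSDrec mice were returned to home cage housing for 7 days after 14 days of defeat (n = 4, animals 28 to 31). The methods describe collection 16 h after the last defeat, which cannot hold for CSDrec mice with their 7 days in home cage housing. The methods also describe a choice of stressed mice that were susceptible in behavioural tests, except that CSD1 mice were not phenotyped. Every stress group is set against the same 4 HC animals, so the comparisons with HC are not independent of one another.

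To show the sequence in front of the factors on which the comparison of shear-linked with glucocorticoid-linked members turns, the 250 bases before a transcript start of Klf2 (chr8:72318812-72319061, plus strand), Klf4 (chr4:55532476-55532725, minus strand), Klf9 (chr19:23140976-23141225, plus strand) and Klf15 (chr6:90462326-90462575, plus strand) are given from RefSeq on GRCm38.p6. The Klf15 window belongs to a start inside the annotated span of that gene, downstream of its outermost end. Each reads 5′ to 3′ on the strand of its gene, and capitals mark CACCC boxes (CACCC or GGGTG) and the Mef2 form CTANNNNTAG.
Klf2: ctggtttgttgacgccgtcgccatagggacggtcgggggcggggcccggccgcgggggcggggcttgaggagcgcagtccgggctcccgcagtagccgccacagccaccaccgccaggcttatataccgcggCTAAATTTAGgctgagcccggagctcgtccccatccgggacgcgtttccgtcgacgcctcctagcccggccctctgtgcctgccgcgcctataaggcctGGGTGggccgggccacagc
Klf4: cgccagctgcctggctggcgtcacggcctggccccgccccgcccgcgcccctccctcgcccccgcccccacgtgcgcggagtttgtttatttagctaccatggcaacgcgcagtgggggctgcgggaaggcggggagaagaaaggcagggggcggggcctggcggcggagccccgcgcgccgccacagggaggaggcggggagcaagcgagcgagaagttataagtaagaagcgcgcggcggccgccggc
Klf9: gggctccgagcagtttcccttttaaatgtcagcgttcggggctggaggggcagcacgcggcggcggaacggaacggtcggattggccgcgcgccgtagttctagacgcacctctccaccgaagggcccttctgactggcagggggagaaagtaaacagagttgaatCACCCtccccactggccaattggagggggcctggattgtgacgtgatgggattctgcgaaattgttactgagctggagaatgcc
Klf15: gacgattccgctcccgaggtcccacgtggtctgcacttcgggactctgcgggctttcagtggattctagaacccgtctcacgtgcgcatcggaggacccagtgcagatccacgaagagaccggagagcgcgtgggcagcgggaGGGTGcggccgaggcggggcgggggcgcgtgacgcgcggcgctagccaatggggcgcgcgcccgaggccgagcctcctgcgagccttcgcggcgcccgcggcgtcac
The Klf2 window held 1 Mef2 form, whose first base lay at position -118 counted back from the start, and 3.2% of 32851 promoter windows of this length held that form on either strand. It was the only window with the Mef2 form among the 9 members that had one in the RefSeq table. Klf10 was without an entry. CACCC boxes stood once each in the windows of Klf2 (-19), Klf9 (-84) and Klf15 (-107) and not in that of Klf4, against 52.0% of all windows. The glucocorticoid response element form GNACANNNTGTNC was found in 0.387% of all windows and its single repeat AGAACA in 16.1%. Neither was found in any of the 9 member windows. The GC content of the 4 windows shown ran between 59.6% in Klf9 and 74.0% in Klf4, against a median of 52.4% over all windows. These matches describe letters in a short window and not occupied sites.

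Before the members are compared, one feature of the arrays has to be stated because it touches every difference from HC. The arrays of HC animals 1 and 2 stood apart from the other 17, with an SD over all tested values of 1.58 and 1.54 against 1.72 to 1.84, and with medians of the rows above the receptor level of 4.01 and 4.00 against 4.39 to 4.50. A set of 8369 rows was at least as bright on average as the dimmest member (Klf15), and these are called equally bright rows below. Their median log2 difference from HC was 0.40, 0.34 and 0.32 after 1, 7 and 14 days of defeat and 0.29 after recovery. With HC animals 1 and 2 left out these medians were 0.13, 0.08, 0.07 and 0.04. HC animal 5 carries the word stressed in one label field and home cage in its title and source, and was kept as HC. The 21 endothelial identity genes averaged log2 10.02 to 10.37 in stressed animals and 9.82 to 10.15 in HC animals. All 21 had positive differences from HC in every stress group. After 1, 7 and 14 days 5, 3 and 9 were higher at an adjusted p under 0.05 (limma), and 0 after recovery. These shares were 23.8%, 14.3% and 42.9% of the list after 1, 7 and 14 days. Beside them stand 24.2%, 29.5% and 23.8% of equally bright rows and 5.84%, 9.04% and 6.87% of all rows. The median difference of the list was 0.25, 0.21 and 0.31 after 1, 7 and 14 days and 0.24 after recovery. Each lay below the median of equally bright rows. In a bulk sample of sorted cells, a change in the level per cell and a change in the share of cells that carry a transcript cannot be told apart.

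Klf2, Klf6, Klf9, Klf11, Klf13 and Klf15 were higher in CSD14 than in HC, and Klf6, Klf9 and Klf13 were higher in CSD7 than in HC, calls that were all lost when HC animals 1 and 2 were left out or when all arrays were set to 1 distribution of values. No member passed the test in CSD1 or CSDrec, and no member was lower in any of the 4 groups. All 10 members had positive differences in all 4 groups in the deposited values, though 11 of these 40 differences turned negative when all arrays were set to 1 distribution. The medians over the members were 0.38, 0.42 and 0.45 after 1, 7 and 14 days of defeat and 0.42 after recovery on the log2 scale, beside the 0.40, 0.34, 0.32 and 0.29 of equally bright rows given above. The number of members past an adjusted p of 0.05 (limma with Benjamini-Hochberg adjustment over all tested rows) was 0 of 10 in CSD1, where 5.84% of all rows were higher, 3 of 10 in CSD7 (9.04%), 6 of 10 in CSD14 (6.87%) and 0 of 10 in CSDrec (0.0167%). Among the equally bright rows the share called higher was 24.2%, 29.5% and 23.8% after 1, 7 and 14 days and 0.0956% after recovery. At an unadjusted p under 0.05 the counts were 7, 7, 9 and 9 of 10 members, against 29.7%, 31.8%, 28.8% and 26.3% of all rows. The share at this cut was not computed for equally bright rows, whose median differences from HC exceeded those of all rows. The moderated F-test over the 4 differences from HC called 0 of 10 members, with 0.555% of all rows called. The lowest adjusted p of that test among the members was 0.0899 for Klf9, and 7 members had an unadjusted p under 0.05. When HC animals 1 and 2 were left out, no member passed the adjusted test in any group, and 1, 3, 3 and 2 members had an unadjusted p under 0.05. Leaving out HC animal 1, HC animal 2 or any 1 of the 4 CSD14 animals left 0 of 10 members called in CSD14, and leaving out HC animal 6 gave 9. In CSD7, 0 were called without HC animal 1, HC animal 2 or CSD7 animal 17, 1 without CSD7 animal 16, and 5 and 6 without HC animals 5 and 6. For CSD1 the count was 3 without CSD1 animal 4, 1 without CSD7 animal 9, and 4 and 6 without HC animals 5 and 6, and for CSDrec it was 4 and 7 without those HC animals.

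Setting all arrays to 1 distribution removed the difference in distribution between arrays, but not differences in the share of cell types. That step by itself draws the medians of a large set of bright rows towards 0. The medians of the equally bright rows then lay at 0.002, -0.002 and 0.010 after 1, 7 and 14 days and at 0.028 after recovery, and those of the members at -0.003, 0.087, 0.182 and 0.159 (log2). No member was called on that scale, where 96 and 413 of all rows were called higher in CSD7 and CSD14. Klf2, Klf6, Klf7 and Klf13 were positive in all 4 groups on that scale, and Klf3 was negative in all 4. Klf2 had 0.48 and Klf6 0.46 in CSD14, the largest of the 10 there, and Klf6 had 0.47 in CSD7.

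**Figure D1:**
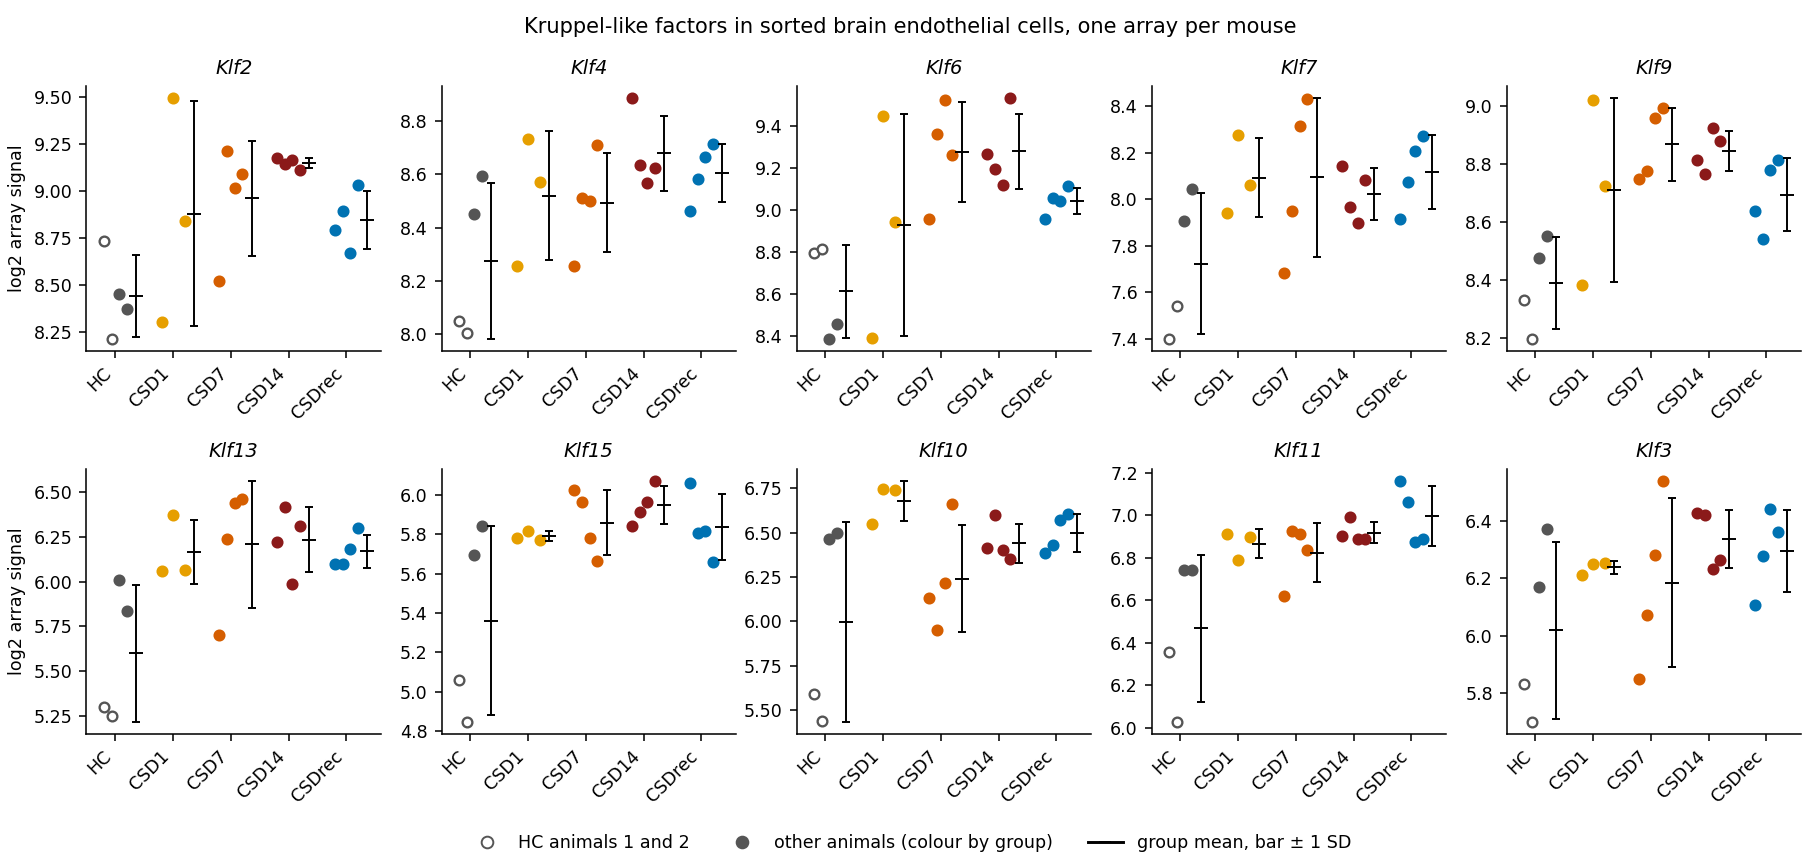
Log2 array signal (vertical axis of each panel) of the 10 Kruppel-like factors in HC, CSD1, CSD7, CSD14 and CSDrec, with 1 point per animal, open points for HC animals 1 and 2, and a bar for the group mean ± 1 SD (n = 4, and n = 3 in CSD1). Klf2 in CSD14 lies within 9.11 to 9.17 while its HC animals lie within 8.21 to 8.73, and in 8 of 10 panels both open points lie below the other HC points.

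Of the equally bright rows, 81.6% had HC animals 1 and 2 both below HC animals 5 and 6, and the members had about the same share. In 8 of the 10 members (Klf3, Klf4, Klf7, Klf9, Klf10, Klf11, Klf13 and Klf15) HC animals 1 and 2 both lay below HC animals 5 and 6, by 0.25 for Klf9 and by 0.50 to 0.97 for the others on the log2 scale. In Klf2 the 2 pairs of animals differed by 0.06, and in Klf6 animals 1 and 2 lay above animals 5 and 6 by 0.38. Klf2 and Klf6 were the members whose differences from HC did not become smaller when HC animals 1 and 2 were left out.

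Klf2, the flow-responsive factor that raises endothelial nitric oxide synthase and thrombomodulin, had log2 signals of 8.73, 8.21, 8.45 and 8.37 in HC animals. It had 8.30, 9.495 and 8.84 in CSD1 animals, 8.52, 9.21, 9.02 and 9.09 in CSD7 animals, 9.17, 9.14, 9.16 and 9.11 in CSD14 animals and 8.79, 8.89, 8.67 and 9.03 in CSDrec animals. All 4 CSD14 animals lay above all HC animals, whereas the other groups overlapped with HC, and CSD1 animal 4 lay within the HC range. Groups that do not overlap, with CSD14 higher, were found in 5 of 10 members and in 10.1% of all rows. That share was not computed for equally bright rows. Klf2 was 1.63-fold higher in CSD14 than in HC, a log2 difference of 0.71 ± 0.19 (SE, adjusted p = 0.0354, limma). The CSD1, CSD7 and CSDrec differences of 0.44 ± 0.21, 0.52 ± 0.19 and 0.41 ± 0.19 had adjusted p of 0.165, 0.0788 and 0.186 (limma). Against HC animals 5 and 6 alone the CSD14 difference was 0.74 ± 0.23, with an unadjusted p of 0.00592 and an adjusted p of 0.310 in that smaller fit. The order of the group means was CSD14 (9.15 ± 0.03), CSD7 (8.96 ± 0.31), CSD1 (8.88 ± 0.60), CSDrec (8.85 ± 0.15) and HC (8.44 ± 0.22, SD), and CSD14 against CSD7 and CSD7 against CSD1 did not pass a direct test. CSD1 and CSDrec were not compared directly.

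Klf4, the second shear-induced factor, which shares many targets with Klf2, had log2 signals of 8.05, 8.01, 8.45 and 8.60 in HC animals. It had 8.26, 8.73 and 8.57 in CSD1 animals, 8.26, 8.51, 8.50 and 8.71 in CSD7 animals, 8.89, 8.64, 8.57 and 8.62 in CSD14 animals and 8.46, 8.58, 8.67 and 8.71 in CSDrec animals. Every stress group overlapped with HC, since HC animal 6 at 8.60 lay above at least 1 animal of each. Log2 differences from HC were 0.24 ± 0.15, 0.22 ± 0.14 and 0.40 ± 0.14 after 1, 7 and 14 days of defeat and 0.33 ± 0.14 after recovery (SE). None passed the test (adjusted p = 0.266, 0.275, 0.0689 and 0.140, limma). Set against HC animals 5 and 6 alone they ran between -0.03 and 0.16.

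Klf6, the injury-induced factor, had log2 signals of 8.79, 8.81, 8.39 and 8.46 in HC animals. It had 8.39, 9.45 and 8.94 in CSD1 animals, 8.96, 9.36, 9.52 and 9.26 in CSD7 animals, 9.27, 9.20, 9.12 and 9.53 in CSD14 animals and 8.96, 9.06, 9.04 and 9.11 in CSDrec animals. The 4 animals each of CSD7, CSD14 and CSDrec lay above all HC animals, and CSD1 animal 4 again lay within the HC range, so that 14 of 15 stressed animals exceeded the highest HC animal. Groups without overlap, higher than HC, occurred in 2 of 10 members in CSD7 (7.47% of all rows), in 3 of 10 in CSDrec (8.38%) and in 3 of 10 in CSD1 (9.78%). Equally bright rows were not counted in this way. Klf6 was 1.58-fold higher than HC in CSD7 (log2 0.66 ± 0.17, SE, adjusted p = 0.0277, limma) and 1.59-fold higher in CSD14 (0.67 ± 0.17, adjusted p = 0.0316). It differed by 0.31 ± 0.19 in CSD1 and by 0.43 ± 0.17 in CSDrec (adjusted p = 0.264 and 0.134, limma). When HC animals 5 and 6 served alone, the 4 differences were 0.50 ± 0.22, 0.85 ± 0.21, 0.86 ± 0.21 and 0.62 ± 0.21. Their unadjusted p in limma were 0.0345, 0.000832, 0.000797 and 0.00865, and none passed after adjustment (lowest adjusted p = 0.175).

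Klf9, the glucocorticoid-induced repressor, had log2 signals of 8.33, 8.20, 8.48 and 8.55 in HC animals. It had 8.39, 9.02 and 8.73 in CSD1 animals, 8.75, 8.77, 8.96 and 8.99 in CSD7 animals, 8.81, 8.77, 8.92 and 8.88 in CSD14 animals and 8.64, 8.54, 8.78 and 8.81 in CSDrec animals. CSD7 and CSD14 animals all lay above the HC animals, and 13 of 15 stressed animals exceeded the highest HC animal, the exceptions being CSD1 animal 4 and CSDrec animal 29. Klf9 was 1.39-fold higher than HC in CSD7 (log2 0.48 ± 0.11, SE, adjusted p = 0.0222, limma) and 1.37-fold higher in CSD14 (0.46 ± 0.11, adjusted p = 0.0278). It differed by 0.32 ± 0.12 in CSD1 and by 0.30 ± 0.11 in CSDrec (adjusted p = 0.101 and 0.115, limma). Relative to HC animals 5 and 6 alone the 4 differences were 0.20, 0.35, 0.33 and 0.18.

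Klf15, the glucocorticoid-induced regulator of amino acid and glucose metabolism, had log2 signals of 5.06, 4.85, 5.69 and 5.84 in HC animals. It had 5.78, 5.82 and 5.77 in CSD1 animals, 6.03, 5.96, 5.78 and 5.66 in CSD7 animals, 5.84, 5.91, 5.96 and 6.07 in CSD14 animals and 6.06, 5.81, 5.82 and 5.66 in CSDrec animals. Of the 4 stress groups CSD14 alone did not overlap with HC, with CSD14 animal 12 at 5.844 and HC animal 6 at 5.840. Klf15 was higher in CSD14 than in HC by 0.59 ± 0.17 (log2, SE, adjusted p = 0.0397, limma). It differed by 0.43 ± 0.18 in CSD1, 0.50 ± 0.17 in CSD7 and 0.48 ± 0.17 in CSDrec, which did not pass (adjusted p = 0.123, 0.0578 and 0.0966, limma). With HC animals 5 and 6 alone as the controls, the differences were 0.02, 0.09, 0.18 and 0.07.

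Klf13, the relative of Klf9, had log2 signals of 5.30, 5.25, 6.01 and 5.84 in HC animals, 6.06 to 6.37 in CSD1 animals, 5.70 to 6.46 in CSD7 animals, 5.99 to 6.42 in CSD14 animals and 6.10 to 6.30 in CSDrec animals. CSD1 and CSDrec did not overlap with HC, while CSD7 animal 9 and CSD14 animal 14 lay below HC animal 5. It passed the test in CSD7 (0.61 ± 0.18, adjusted p = 0.0364, limma) and in CSD14 (0.64 ± 0.18, adjusted p = 0.0373), and had differences of 0.57 ± 0.19 in CSD1 and 0.57 ± 0.18 in CSDrec (log2, SE). With HC animals 5 and 6 alone the 4 differences were between 0.24 and 0.31.

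Klf10 and Klf11 are the TGF-beta inducible repressors. Klf10 was highest in CSD1, with log2 signals of 6.55, 6.75 and 6.74 against 5.59, 5.44, 6.47 and 6.50 in HC animals, without overlap, and a log2 difference of 0.68 ± 0.22 (SE, adjusted p = 0.0593, limma). In CSD7, CSD14 and CSDrec it was 0.24 ± 0.20, 0.44 ± 0.20 and 0.50 ± 0.20. CSD7 against CSD1 was -0.44 (95% confidence interval -0.89 to 0.01), the widest gap of any member in the 4 direct comparisons run, with an unadjusted p of 0.0560 (limma). For Klf11, 14 of 15 stressed animals lay above the HC signals of 6.36, 6.03, 6.74 and 6.74, the exception being CSD7 animal 9 at 6.62. Klf11 was 1.37-fold higher in CSD14 than in HC (log2 0.45 ± 0.13, SE, adjusted p = 0.0393, limma), and differed by 0.40 ± 0.14 in CSD1 and 0.36 ± 0.13 in CSD7. In CSDrec it differed by 0.53 ± 0.13, with the lowest adjusted p of any member in that group (0.0605, limma). With HC animals 5 and 6 alone, Klf10 differed by 0.20, -0.24 and -0.04 after 1, 7 and 14 days and by 0.02 after recovery, and Klf11 by 0.12, 0.08, 0.18 and 0.25.

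Klf3, the CtBP-binding repressor, and Klf7, the factor of axon outgrowth, passed the test in no group. Klf3 differed from HC by 0.17 to 0.32 and Klf7 by 0.30 to 0.39 on the log2 scale over the 4 groups, and both overlapped with HC in each of them. The lowest adjusted p was 0.149 for Klf3 in CSD14 and 0.115 for Klf7 in CSD7 (limma). With HC animals 5 and 6 alone, Klf3 lay between -0.09 and 0.07 and Klf7 between 0.05 and 0.14.

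**Figure D2:**
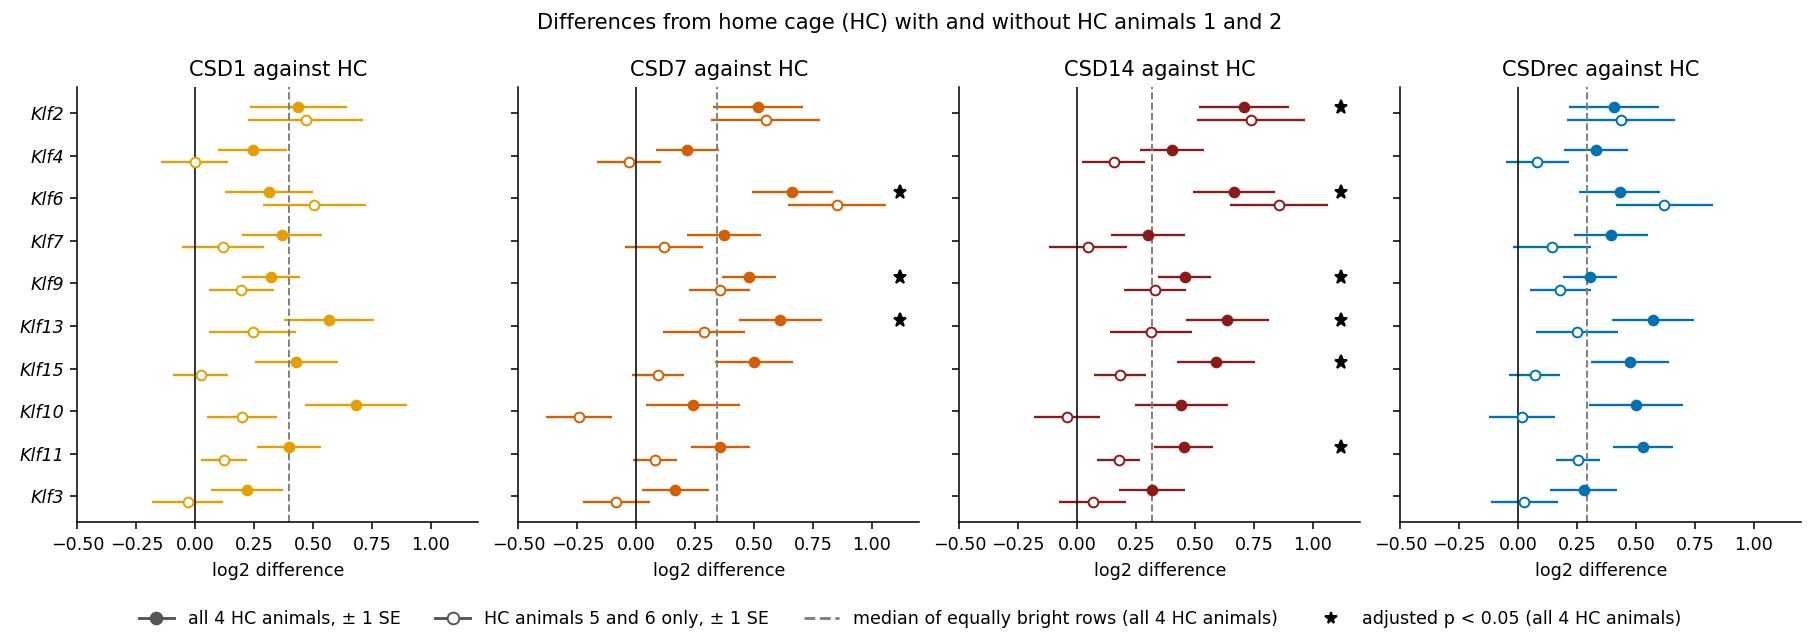
Log2 difference from HC (horizontal axis, ± 1 SE) of each Kruppel-like factor in CSD1, CSD7, CSD14 and CSDrec, with all 4 HC animals (filled points) and with HC animals 5 and 6 alone (open points), and the median of equally bright rows as a dashed line. Stars mark the 3 members in CSD7 and the 6 in CSD14 with an adjusted p under 0.05 against all 4 HC animals (none with all arrays set to 1 distribution), and the open points lie to the right of the filled ones in Klf2 and Klf6 alone.

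Direct comparisons between the stress groups asked whether any member changed with longer defeat or after recovery. No member passed the test in CSD7 against CSD1, CSD14 against CSD7, CSD14 against CSD1 or CSDrec against CSD14 (limma, adjusted p of 1.00 throughout), and none had an unadjusted p under 0.05. Over all rows 0% were called in each of these 4 comparisons, while 1.38%, 1.53%, 2.88% and 3.67% of rows had an unadjusted p under 0.05. Klf15 in CSD14 lay above all CSD1 animals without overlap, at 0.16 on the log2 scale, in a comparison in which 4.65% of all rows did so. Without an HC animal in the comparison, the array differences of HC animals 1 and 2 enter only through the shared estimate of the spread.

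After recovery, Klf2 and Klf6 lay below their CSD14 levels in every animal. Klf2 was 8.67 to 9.03 in CSDrec animals against 9.11 to 9.17 in CSD14 animals, a difference of -0.30 (95% confidence interval -0.70 to 0.10), and Klf6 was 8.96 to 9.11 in CSDrec animals against 9.12 to 9.53 in CSD14 animals, a difference of -0.24 (-0.60 to 0.13). These 2 of 10 members did not overlap between the groups, with CSDrec lower, against 2.33% of all rows and 4.05% of rows above the receptor level. Klf9 was lower by 0.15 with all 4 CSDrec animals below the CSD14 mean and overlapping ranges, and Klf10, Klf11 and Klf7 were 0.06 to 0.10 higher. The median over the 10 members was -0.07, beside -0.05 in equally bright rows. Neither of the non-overlapping members reached an unadjusted p under 0.05 (0.132 for Klf2 and 0.189 for Klf6, limma), and both intervals include 0. Their width comes from a spread shared by all 5 groups and not from the 2 groups compared alone. A fit on those 2 groups alone also called no member. The SD in CSD14 and CSDrec was 0.03 and 0.15 for Klf2 and 0.18 and 0.06 for Klf6. In CSD1 it was 0.60 for Klf2 and 0.53 for Klf6.

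Shear-linked and glucocorticoid-linked members were then compared. After 1, 7 and 14 days of defeat and after recovery, the mean difference of Klf2 and Klf4 from HC was 0.34, 0.37, 0.55 and 0.37 on the log2 scale. That of Klf9 and Klf15 was 0.37, 0.49, 0.52 and 0.39. The shear-linked minus the glucocorticoid-linked difference came to -0.03, -0.12, 0.03 and -0.02 on the log2 scale, with SE of 0.15, 0.14, 0.14 and 0.14. The 95% confidence intervals were -0.36 to 0.30 in CSD1, -0.426 to 0.185 in CSD7, -0.27 to 0.34 in CSD14 and -0.33 to 0.28 in CSDrec. All include 0, and differences between the pairs within these bounds were not excluded. Within each animal, the shear-linked mean minus the glucocorticoid-linked mean averaged 1.48 ± 0.19 in HC animals, 1.45 ± 0.25 in CSD1 animals, 1.36 ± 0.25 in CSD7 animals, 1.52 ± 0.14 in CSD14 animals and 1.46 ± 0.17 in CSDrec animals (SD). The 5 groups overlapped. With HC animals 5 and 6 alone the shear-linked pair differed from HC by 0.23, 0.26, 0.45 and 0.26 and the glucocorticoid-linked pair by 0.11, 0.22, 0.26 and 0.12, which leaves 0.12, 0.04, 0.19 and 0.14 between them (SE 0.18, 0.17, 0.17 and 0.17). In that comparison Klf2 differed more than Klf4, and Klf9 more than Klf15, in each of the 4 groups. The values are a description, since the pairs were named with earlier results of these data known.

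**Figure D3:**
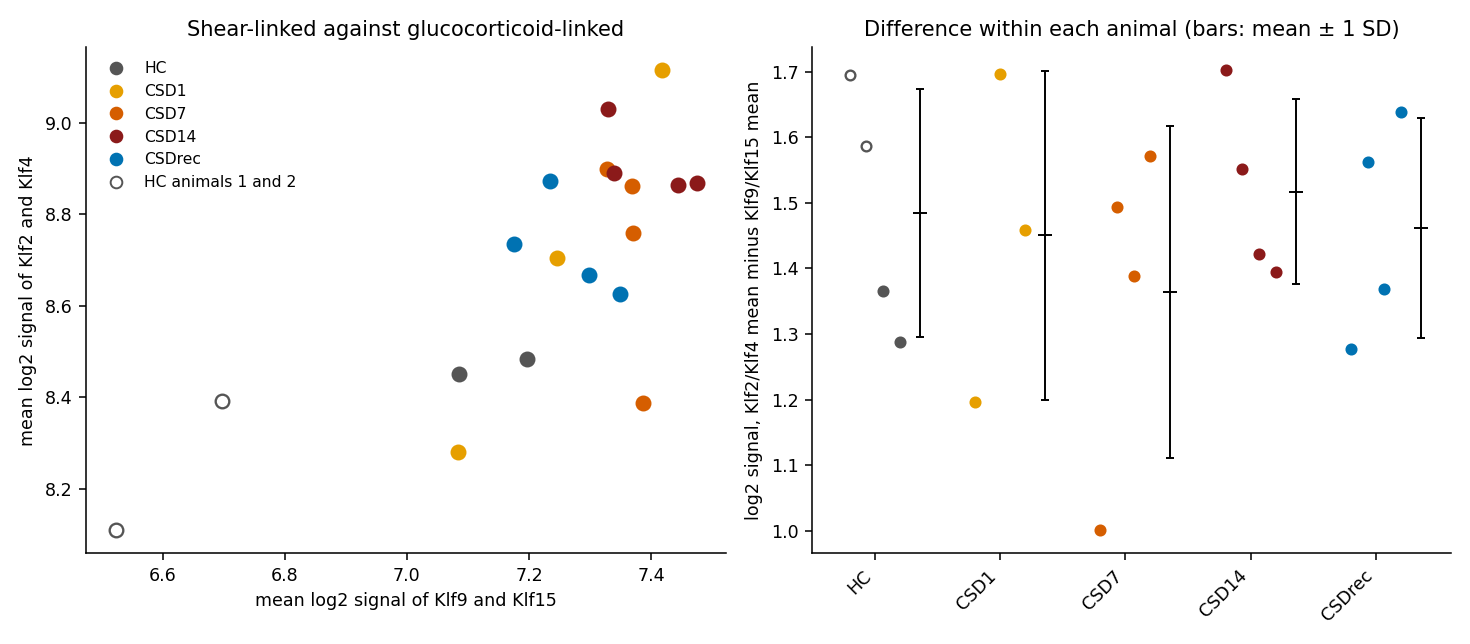
Mean log2 signal of Klf2 and Klf4 against that of Klf9 and Klf15 in each of 19 animals (left), and the shear-linked minus the glucocorticoid-linked mean by group with the mean ± 1 SD (right), with open points for HC animals 1 and 2. HC animals 1 and 2 lie apart on the glucocorticoid-linked axis at 6.70 and 6.52, whereas the groups overlap in the difference, which runs between 1.00 in CSD7 animal 9 and 1.70 in CSD14 animal 12.

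Across the 15 stressed animals, Klf2 varied with Klf9 and with Klf4 by Pearson's r, whereas neither rank correlation passed adjustment. Pearson's r was 0.75 for Klf2 with Klf9 (permutation p = 0.00156, adjusted p = 0.00744 over 6 pairs) and 0.73 for Klf2 with Klf4 (permutation p = 0.00248, adjusted p = 0.00744). Spearman's rho was 0.63 for Klf2 with Klf9 (permutation p = 0.0136, adjusted p = 0.0815) and 0.57 for Klf2 with Klf4 (permutation p = 0.0297, adjusted p = 0.0873). Both rested in part on CSD1 animal 4 and CSD7 animal 9, which had the lowest Klf2 of the stressed animals, and without them r was 0.62 for Klf2 with Klf9 and 0.37 for Klf2 with Klf4. On deviations from the group means r was 0.75 and 0.76. The same measure gave 0.71 for Klf4 with Klf9, -0.62 for Klf4 with Klf15, -0.29 for Klf9 with Klf15 and -0.23 for Klf2 with Klf15. Klf4 with Klf9 gave r = 0.56 and rho = 0.53 (permutation p = 0.0321 and 0.0436, adjusted 0.0643 and 0.0873), and 0.32 without the same 2 animals. The glucocorticoid-linked pair itself, Klf9 with Klf15, gave r = -0.08 and rho = -0.10 (permutation p = 0.778 and 0.714), with adjusted p of 0.933 and 0.714. Klf2 with Klf15 gave -0.02 and 0.16 (permutation p = 0.942 and 0.565, adjusted 0.942 and 0.678). Klf4 with Klf15 gave -0.35 and -0.31 (permutation p = 0.202 and 0.252, adjusted 0.303 and 0.377).

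The named genes whose signal followed each of these 4 members most closely over the 15 stressed animals were ranked among 13270 genes. Klf2 had Jag2, a Notch ligand of arterial endothelium (r = 0.94), Nploc4 (0.90) and Flii (0.90). Klf4 had Zfp592 (0.85), Ints9 (0.84) and Sox17, a transcription factor of arterial endothelium (0.83). Klf9 had P2ry1, a purinergic receptor (0.89), Ywhab (0.88) and Mgp, an inhibitor of calcification and BMP signalling (0.88), and Klf15 had Zbtb11os1 (0.87), Ccdc92 (0.86) and Tpbgl (0.86). They are the extremes of a long ranking over few animals that share group and array, so the values are given without a test.

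The other members of the family and the related Sp factors gave no call. Of 7 other Klf genes, 3 lay above the receptor level and 0 passed the test in any group. The largest difference in CSD14 was that of Klf16 (0.70 ± 0.24 on the log2 scale, SE, adjusted p = 0.0704, limma), and the median of the 7 was 0.09. Of 8 Sp genes, 7 lay above the receptor level and 0 passed, with a median of 0.14 in CSD14 and the largest differences in Sp4 (0.29) and Sp1 (0.28).

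Upstream of Klf2 and Klf4, 2, 3 and 5 of 16 genes of shear sensing and of the Mek5-Erk5-Mef2 relay were higher after 1, 7 and 14 days of defeat. After recovery 0 were higher, and none was lower in any group. These shares of 12.5%, 18.8% and 31.2% stand beside 24.2%, 29.5% and 23.8% of equally bright rows, so the calls are near the background of the arrays. In CSD14 the largest calls were Piezo1, a channel opened by membrane stretch (0.61 ± 0.16, adjusted p = 0.0335, limma), Map3k3, the kinase above Mek5 (0.56 ± 0.13, adjusted p = 0.0218), Flt4, the receptor for Vegfc (0.50 ± 0.13, adjusted p = 0.0310), and Mapk7, which encodes Erk5 (0.44 ± 0.12, adjusted p = 0.0407, log2, SE). The list had a median of 0.30 in CSD14, beside 0.32 in equally bright rows. Against HC animals 5 and 6 alone its median was 0.03, and 0 of its genes were called in any group. With all arrays set to 1 distribution the median was -0.003 in CSD14, and 0 genes were called.

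Downstream, genes that Klf2 or Klf4 raise and genes that they lower both included higher members and no lower one. Of 13 genes raised by these factors, 6, 5 and 5 were higher after 1, 7 and 14 days of defeat and 0 after recovery. These shares of 46.2%, 38.5% and 38.5% stand beside 24.2%, 29.5% and 23.8% of equally bright rows. The median of these genes was 0.45 in CSD14, beside 0.32 in equally bright rows. The leading calls there were Adm, the vasodilator adrenomedullin (1.39 ± 0.37, adjusted p = 0.0344, limma), Sema3g, a semaphorin of arterial endothelium (0.86 ± 0.17, adjusted p = 0.0142), Gja4, the gap junction protein connexin of arteries (0.59 ± 0.15, adjusted p = 0.0316), and Nos3, endothelial nitric oxide synthase (0.55 ± 0.14, adjusted p = 0.0257, log2, SE). Of 9 genes lowered by these factors, 1, 2, 3 and 0 were higher, with a median of 0.46 in CSD14. Their shares after 1, 7 and 14 days were 11.1%, 22.2% and 33.3%. Those after 1 and 7 days lay below the shares of equally bright rows. The calls in CSD14 were Ctgf, a matrix-associated growth factor (1.15 ± 0.15, adjusted p = 0.0129, limma), Edn1, the vasoconstrictor endothelin (1.04 ± 0.23, adjusted p = 0.0200), and Cxcl12, a chemokine (0.40 ± 0.11, adjusted p = 0.0353). Against HC animals 5 and 6 alone the medians in CSD14 were 0.26 and 0.14, and no gene of either list was called. The endothelial identity genes had a CSD14 median of 0.26 in that comparison. With all arrays set to 1 distribution the medians of the raised and lowered genes were 0.26 and 0.30, and 1 gene of each list was called.

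Of 20 genes, the glucocorticoid receptor and its targets, 6, 14 and 12 were higher than in HC after 1, 7 and 14 days, 0 after recovery, and none was lower. These shares of 30%, 70% and 60% stand beside 24.2%, 29.5% and 23.8% of equally bright rows. In CSD14 the largest calls were Angptl4, an inhibitor of lipoprotein lipase (1.22 ± 0.28, adjusted p = 0.0215, limma), Dusp1, a MAP kinase phosphatase (1.04 ± 0.17, adjusted p = 0.0129), Cdkn1a, a cell cycle inhibitor (0.98 ± 0.29, adjusted p = 0.0468), and Fkbp5, a chaperone partner of the receptor (0.74 ± 0.20, adjusted p = 0.0359, log2, SE). The mean signal of the list was 5.96 to 6.36 in HC animals, 6.35 to 7.12 in CSD1 animals, 6.80 to 7.01 in CSD7 animals, 6.71 to 6.96 in CSD14 animals and 6.49 to 6.51 in CSDrec animals. CSDrec animals lay below every CSD7 and CSD14 animal and above every HC animal. CSD1 animal 4 at 6.35 lay within the HC range. The median of the list in CSDrec against CSD14 was -0.26, where Klf9 had -0.15 and Klf15 -0.11, and 0 of its genes passed that test. Against HC animals 5 and 6 alone the medians of the list were 0.46, 0.58 and 0.47 after 1, 7 and 14 days and 0.15 after recovery, with 0, 1, 1 and 0 genes called. With all arrays set to 1 distribution they were 0.21, 0.36, 0.38 and 0.09, with 1 gene called, in CSD14.

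Partners of the repressor members and the TGF-beta pathway were read in the same way. Of 12 corepressors and coactivators of Kruppel-like factors, 3, 4 and 4 were higher after 1, 7 and 14 days of defeat and 0 after recovery. These shares of 25.0%, 33.3% and 33.3% also lay near those of equally bright rows. In CSD14 the largest differences were those of Sin3b, the scaffold that Klf9, Klf10, Klf11 and Klf13 bind (0.69 ± 0.15, adjusted p = 0.0204, limma), Hdac1, a histone deacetylase of that complex (0.47 ± 0.09, adjusted p = 0.0146), and Ctbp1, the partner of Klf3 (0.47 ± 0.09, adjusted p = 0.0151, log2, SE). Of 18 genes of TGF-beta and BMP signalling, 2, 8, 8 and 0 were higher. After 1, 7 and 14 days these were 11.1%, 44.4% and 44.4%, against 24.2%, 29.5% and 23.8% of equally bright rows. The inhibitory Smads led in CSD14, with Smad6 (0.84 ± 0.18, adjusted p = 0.0178, limma) and Smad7 (0.80 ± 0.19, adjusted p = 0.0244). No gene of these lists was lower. With HC animals 1 and 2 left out no gene of either was called, and their medians in CSD14 were -0.02 and 0.08. With all arrays set to 1 distribution the medians were 0.05 and 0.16, with 1 and 2 genes called in CSD14.

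**Figure D4:**
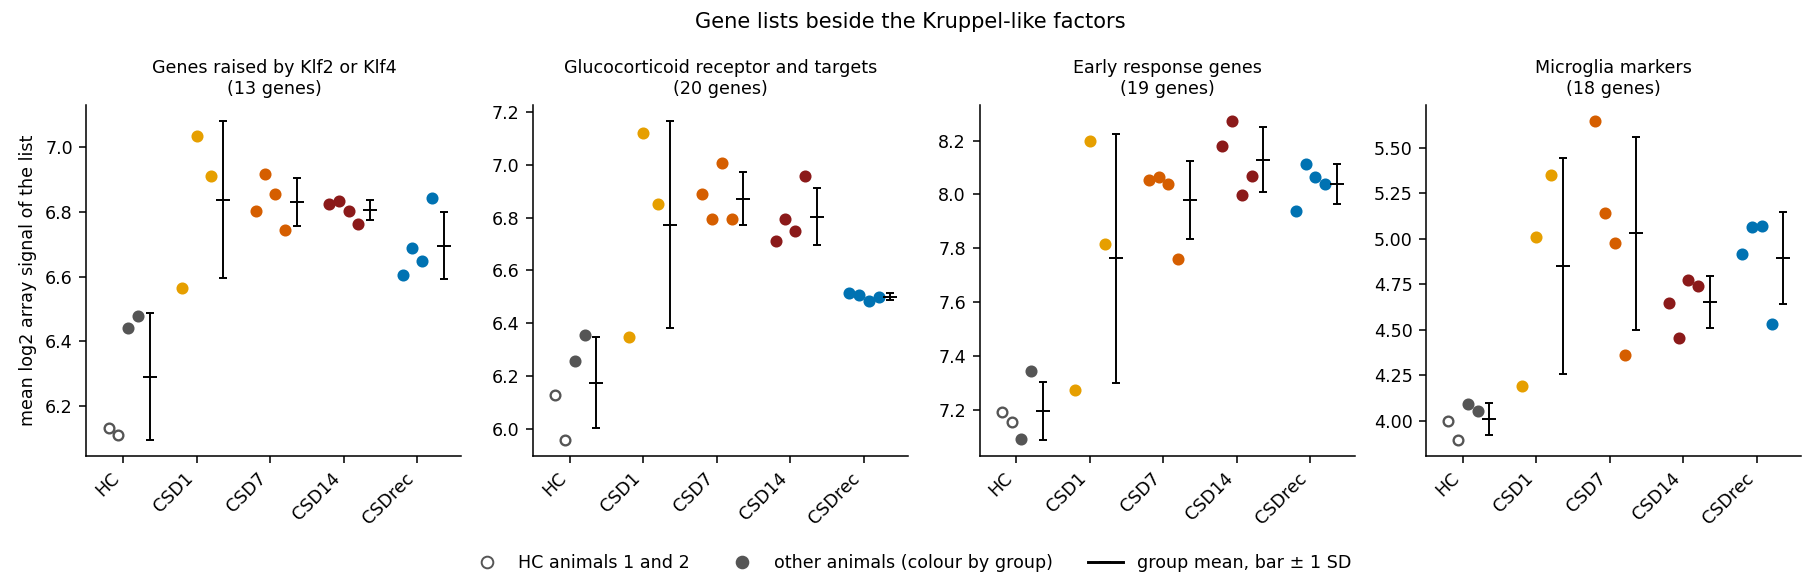
Mean log2 signal per animal (vertical axis) of the genes raised by Klf2 or Klf4, of the glucocorticoid receptor and its targets, of early response genes and of microglia markers in HC, CSD1, CSD7, CSD14 and CSDrec, with open points for HC animals 1 and 2 and bars for the mean ± 1 SD. Early response genes lie at 7.76 or above in all stressed animals but CSD1 animal 4 and at 7.09 to 7.34 in HC, and microglia markers lie at 4.19 or above in all stressed animals and at 4.09 or below in HC.

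Other lists moved with the same groups, and their values are given here because Klf2, Klf4, Klf6 and Klf10 are themselves known as early response genes, which cells switch on within minutes to hours of a stimulus, cell dissociation included. Of 19 other early response genes, 3, 16 and 17 were higher than in HC after 1, 7 and 14 days of defeat, 5 after recovery, and none was lower. These shares were 15.8%, 84.2%, 89.5% and 26.3%, against 24.2%, 29.5%, 23.8% and 0.0956% of equally bright rows. The median log2 differences of the list were 0.58, 0.88, 1.00 and 0.76. The 5 in CSDrec were Nr4a1 (1.61 ± 0.19, adjusted p = 0.006275, limma), Ccn1 (1.60 ± 0.21, adjusted p = 0.0122), Atf3 (1.32 ± 0.21, adjusted p = 0.0464), Egr1 (1.32 ± 0.21, adjusted p = 0.0464) and Btg2 (1.30 ± 0.16, adjusted p = 0.00851, SE), among 11 rows called over the whole array. The mean of the 19 genes was 7.09 to 7.34 in HC, 7.27, 8.20 and 7.82 in CSD1 animals 4, 18 and 19, 7.76 to 8.06 in CSD7 animals, 7.997 to 8.27 in CSD14 animals and 7.94 to 8.11 in CSDrec animals. CSD1 animal 4, which was low in Klf2, Klf4, Klf6 and Klf9 as well, was the only stressed animal within the HC range. Against HC animals 5 and 6 alone the medians of the list were 0.51, 0.71, 0.90 and 0.94. With all arrays set to 1 distribution they were 0.24, 0.53, 0.69 and 0.67, and 0, 0, 6 and 2 genes were called.

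Among markers of other cells, 18 microglia genes had means of 3.89 to 4.09 in HC animals, 4.19 to 5.35 in CSD1 animals, 4.36 to 5.64 in CSD7 animals, 4.45 to 4.77 in CSD14 animals and 4.53 to 5.07 in CSDrec animals. Of them, 4, 14, 2 and 0 were higher than in HC, and 0, 1, 0 and 0 with all arrays set to 1 distribution. As deposited these shares were 22.2%, 77.8% and 11.1% after 1, 7 and 14 days, beside 5.84%, 9.04% and 6.87% of all rows. Among equally bright rows, which lie above the microglia means, the shares were 24.2%, 29.5% and 23.8%. Pericyte markers had means of 4.98 to 6.602 in stressed animals and 4.48 to 6.89 in HC animals, with 0 of 9 genes called in any group. The HC range was split, since HC animals 1 and 2 had means of 4.48 and 4.52 while HC animals 5 and 6 had means of 6.89 and 6.70, so that the pericyte signal of the 2 HC animals used alone above exceeded that of all stressed animals. Against them the pericyte medians were -1.32, -1.13 and -1.65 after 1, 7 and 14 days and -0.998 after recovery, with 9, 9, 9 and 7 of 9 genes at an unadjusted p under 0.05 (limma) and 0 called after adjustment. Astrocyte markers had means of 4.15 to 4.52 in HC animals, 4.53 to 5.47 in CSD1 animals, 4.52 to 6.41 in CSD7 animals, 4.48 to 4.81 in CSD14 animals and 4.77 to 4.89 in CSDrec animals, and 5 of 11 were higher in CSD7 than in HC (median 0.72 on the log2 scale, 0 called in the other groups). In CSD7 0 of 11 were called with all arrays set to 1 distribution or without HC animals 1 and 2. The astrocyte mean was 6.41 in CSD7 animal 9 and 5.09, 5.14 and 4.52 in CSD7 animals 16, 17 and 25. CSD7 animal 9, the lowest of its group in all members but Klf10 and Klf15, had the highest microglia, pericyte, border macrophage, smooth muscle, neuron and astrocyte means and the lowest endothelial mean of its group. Border macrophage markers had means of 3.28 to 3.51 in HC animals, 3.52 to 3.64 in CSD14 animals and 4.37, 4.32, 4.68 and 3.52 in CSDrec animals 28 to 31. Their median was 0.76 in CSDrec against HC and 0.615 against CSD14. In both comparisons 11 of 11 genes were positive and 0 were called. Endothelial identity genes had a median of -0.08 in CSDrec against CSD14, with 7 of 21 positive and 0 called. The part of early response genes, of microglia, border macrophage, astrocyte and pericyte transcripts and of the HC arrays in the differences of the Kruppel-like factors was not tested.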

How the data were processed

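CD31 positive brain cells of 19 mice were hybridised to 1 array each. The authors corrected the background by RMA, quantile normalised, and, per the methods, used median polish and a log2 scale within Partek Genomics Suite, whereas the submitters' processing notes name Affymetrix Expression Console with RMA, and the labels and methods name different array types. The deposited log2 intensities are 1 value per row and array and have no read depth (the number of arrays limits precision). Despite the stated quantile normalisation, the deposited arrays do not share 1 distribution, with an SD over tested values of 1.54 to 1.84. As to a genome build, none is named by the sources read. The daily encounter lasted 10 minutes in the labels and 5 minutes in the methods.

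Of 72688 rows, 6732 control rows were left out and 65956 tested in limma 3.58.1 (R 4.3.3) over 5 groups with empirical Bayes moderation (14 residual and 3.60 prior degrees of freedom) and Benjamini-Hochberg adjustment at 0.05. P-values measure the spread between animals. Correlations used 1e+05 permutations, two-sided (scipy 1.17.1). Members and lists were chosen with earlier results of these data known. Named list genes had the largest differences among those called, or among all where none was called. The row with the highest mean stood for a gene, Ctgf was matched as Ccn2, and 1 or 2 genes of some lists were unmatched (Sp2, Hdac5, Junb and Hspa1b among them). Sequences came from RefSeq on GRCm38.p6. The fit was tested on simulated data. Alternatives were the normalisation, the filter, the samples and the covariate of the fit, array weights, moderation and each animal left out.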

Additional observations from a re-analysis of the deposited data

Results flagged for a closer look

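Klf11 in CSD14 animal 13, at 6.992 (log2), stood apart from the other 3 animals of its group, which lay at 6.888, 6.889 and 6.905. The gap to the nearest of them was 0.837 of the whole range, just past Dixon's 95% critical value for a group of that size. It was the 1 animal apart in 40 groups of 4 animals looked at, where chance gives about 1 in 20 groups.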

How the results depend on the processing

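With all arrays set to 1 distribution, 0 members were called in CSD7 (3 as deposited) and 0 in CSD14 (6 as deposited). Array weights gave 2, 1 and 2 members in CSD1, CSD7 and CSD14 and 2 in the F-test. CSD1 animal 19 had a weight of 9.905 there, against 0.51 and 1.38 for CSD1 animals 4 and 18. HC animals 1 and 2 had weights of 0.17 and 0.11. The weighted counts that involve CSD1, here and over all rows, therefore lean on 1 array. A fit on the 2 groups compared gave 0 in CSD7 and CSD14, the unmoderated test of the methods' ANOVA gave 1 and 1, and the fit without HC animals 1 and 2 gave 0 and 0. Leaving out dim rows gave 2 members in CSD1 and 1 in CSDrec. Leaving out 1 animal gave 0 to 6 members in CSD1, 0 to 6 in CSD7, 0 to 9 in CSD14, 0 to 7 in CSDrec and 0 to 4 in the F-test, with the highest counts without HC animal 6, and 0 between stress groups. The shear-linked minus glucocorticoid-linked difference then ran between -0.157 and 0.094 in CSD1, -0.189 and 0.001 in CSD7, -0.032 and 0.104 in CSD14, and -0.088 and 0.048 in CSDrec.

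Of the differences from HC, these turned negative with all arrays set to 1 distribution: Klf3 in CSD1 (-0.249), CSD7 (-0.261), CSD14 (-0.063) and CSDrec (-0.069), Klf4 in CSD1 (-0.105) and CSD7 (-0.053), Klf9 in CSD1 (-0.011), Klf10 in CSD7 (-0.196), Klf11 in CSD1 (-0.054) and CSD7 (-0.049), and Klf15 in CSD1 (-0.017). Array weights turned Klf10 in CSD7 (-0.141). The fit without HC animals 1 and 2 turned Klf3 in CSD1 (-0.032) and CSD7 (-0.086), Klf4 in CSD1 (-0.003) and CSD7 (-0.031), and Klf10 in CSD7 (-0.243) and CSD14 (-0.043). Without CSDrec animal 28, Klf3 in CSDrec against CSD14 became 0.022. The causes were not tested.

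The label number of the animals as a covariate is only partly separable from the groups. HC animals carry low numbers (1 to 6) and CSDrec animals the highest (28 to 31). With it 0 members were called in CSD7 and CSD14, and the shear-linked minus glucocorticoid-linked difference was -0.259, -0.414, -0.188 and -0.598 after 1, 7 and 14 days and after recovery. It turned the CSDrec differences from HC of Klf2 (-0.644), Klf3 (-0.441), Klf4 (-0.494), Klf6 (-0.361), Klf7 (-0.555), Klf9 (-0.412), Klf10 (-0.416) and Klf13 (-0.320). In CSD7 it turned Klf2 (-0.017), Klf3 (-0.200), Klf4 (-0.202), Klf7 (-0.113) and Klf10 (-0.225), in CSD1 Klf3 (-0.061), Klf4 (-0.077) and Klf7 (-0.002), and in CSD14 Klf7 (-0.067). For CSDrec against CSD14 it turned Klf7 (-0.488), Klf10 (-0.505) and Klf11 (-0.054). The slope of this covariate rests on differences within groups, HC animals 1 and 2 against 5 and 6 among them. It was carried over to the high CSDrec numbers, so these reversals are not a separate check on the HC split.

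Over all rows the deposited values gave 4485, 7254, 5209 calls against HC after 1, 7 and 14 days, 11 after recovery and 366 in the F-test. The counts were 0, 148, 610 and 14 with all arrays set to 1 distribution (3 in the F-test), where 96 of 148 and 413 of 610 were higher in CSD7 and CSD14 against 5964 of 7254 and 4528 of 5209 as deposited. They were 0, 4, 6 and 0 without HC animals 1 and 2 (0), 0, 0, 14 and 0 in fits on 2 groups, 0, 0, 0 and 0 with the label number (45), and 10489, 579, 1477 and 13 with array weights (10781). The unmoderated test gave 0, 3742 and 2441 in the defeat groups (0 in the F-test), an intensity trend 2675 in CSD1, 5 in CSDrec and 3 in the F-test, and leaving out dim rows 2516 in CSDrec and 1766 in the F-test. Array weights gave 6629 calls in CSD14 against CSD1, 80 in CSD7 against CSD1 and 2 in CSDrec against CSD14, where a fit on those groups gave 1 and the deposited values 0. No second row existed for any member, so that alternative was not run. No paired analysis was possible because the animals of different groups share no number. The separate list counts with all arrays set to 1 distribution or without HC animals 1 and 2 were chosen after seeing the data.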
